A study of Mus musculus with 31 samples.

Results

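Secreted factors of the liver that respond to feeding and fasting were followed across the study, as 9 named genes of which 8 were measured among 22180 genes. They were chosen by name, as the probe set annotated with the symbol, and where a symbol has several probe sets the one with the highest mean over all arrays stands for it. Each of the 8 had 1 probe set. They are Fgf21, Angptl4, Igfbp1, Igfbp2, Inhbe, Angptl8, Enho and Fst, and the ninth, Gdf15, was not analysed here. Livers came from 31 male C57BL/6 mice aged 3 to 4 months, all sampled in the morning, with 1 array per mouse. The 7 Fast-Fast-Fast mice had been through 2 separate 16 h fasts in a period of 8 weeks, with recovery after each, and were sampled at the end of a further 16 h fast. The 8 Fed-Fed-Fast mice had 0 earlier fasts and were sampled at the end of their only 16 h fast. The 8 Fast-Fast-Fed mice had the 2 earlier fasts and were sampled fed, and 8 Fed-Fed-Fed mice had free access to food throughout. All animals were one sex and one strain, and whole liver was sampled, so the values describe the mixture of its cells. The study asked whether earlier fasts leave a lasting mark on the liver's transcripts.

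The liver tells other organs about nutrient supply through proteins it releases into the blood. Fgf21 codes for a hormone that acts on fat and brain through a receptor complex of an FGF receptor and beta-klotho. It is a known target of the fatty acid sensing receptor PPAR-alpha in fasting and of the stress factor ATF4. Angptl4 and Angptl8 code for angiopoietin-like proteins that restrain lipoprotein lipase, the enzyme that unloads triglyceride from lipoproteins, and are known for opposite control, Angptl4 by fasting and Angptl8 by feeding and insulin. Igfbp1 and Igfbp2 code for proteins that bind insulin-like growth factors in plasma, and Igfbp1 is a classical gene that insulin represses through FoxO1. Inhbe codes for the subunit of activin E, a member of the TGF-beta family made mostly in liver. Fst codes for follistatin, which binds and neutralises activins. Enho codes for the peptide adropin, which is linked to glucose and lipid handling.

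The upstream sequences of 4 members whose signal changed are shown because the members of this set are known targets of a few transcription factors whose short motifs can be read directly. Each is the stretch of 250 bases before the annotated start of the gene, from RefSeq on GRCm38.p6, written 5′ to 3′ on the gene's strand, with matches to the motifs searched in capitals. RefSeq windows were found for 6 of the 9 genes.
Fgf21, chr7:45615491-45615740, minus strand: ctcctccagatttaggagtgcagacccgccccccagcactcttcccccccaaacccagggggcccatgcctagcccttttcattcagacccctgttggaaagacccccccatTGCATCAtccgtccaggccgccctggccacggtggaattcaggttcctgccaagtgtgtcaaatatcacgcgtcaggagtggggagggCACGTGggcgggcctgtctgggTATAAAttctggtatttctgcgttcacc
Igfbp1, chr11:7197537-7197786, plus strand: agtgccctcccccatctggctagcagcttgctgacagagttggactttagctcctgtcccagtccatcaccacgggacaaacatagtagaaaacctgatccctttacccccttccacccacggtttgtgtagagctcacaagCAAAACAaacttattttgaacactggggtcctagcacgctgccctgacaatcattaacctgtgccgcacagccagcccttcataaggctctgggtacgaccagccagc
Inhbe, chr10:127351849-127352098, minus strand: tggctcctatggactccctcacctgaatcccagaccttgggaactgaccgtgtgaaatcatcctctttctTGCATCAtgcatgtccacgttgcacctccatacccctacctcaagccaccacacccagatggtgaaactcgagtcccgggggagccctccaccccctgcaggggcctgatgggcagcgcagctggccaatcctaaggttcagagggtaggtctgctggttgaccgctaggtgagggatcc
Angptl8, chr9:21835260-21835509, plus strand: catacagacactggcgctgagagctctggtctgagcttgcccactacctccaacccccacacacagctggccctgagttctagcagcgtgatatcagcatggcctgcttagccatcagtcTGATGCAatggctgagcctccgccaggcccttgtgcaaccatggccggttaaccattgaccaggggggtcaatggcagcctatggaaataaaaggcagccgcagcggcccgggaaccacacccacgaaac

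Several short motifs were searched on both strands. TGATGCA, the core of the C/EBP-ATF element that ATF4 and CHOP bind, was found in the windows of Fgf21, Inhbe, Angptl8 and Gdf15. It lies 138 to 132 bases before the start of Fgf21, 180 to 174 bases before that of Inhbe, and 130 to 124 bases before that of Angptl8, and in Fgf21 and Inhbe it is read as TGCATCA on the other strand. Among 27025 genes with such windows, 3.1% hold it. CAAAACA, the core of the insulin response sequence known from Igfbp1, lies 108 to 102 bases before the start of Igfbp1 and in no other member's window, and 6.38% of genes hold it. CACGTG, the E-box, which does not overlap the others, was found in Fgf21, Igfbp2 and Gdf15, against 6.86% of genes. TATAAA, the TATA box, was found in Fgf21 28 to 23 bases before the start, against 14.3% of genes. AGGTCA, the core bound by nuclear receptors, was found only in Gdf15 among the 6 members with a window (15.8% of genes). TGTTTAC, the form of the FoxO core that was searched, was found in 0 of them (3.54% of genes). Only exact matches to the letters given were counted, so 0 matches do not show that a window lacks sites for a factor. These matches describe letters in the windows and were not set against binding data.

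The arrays give the signal of liver transcripts on a log2 scale, where a step of 1 is a doubling of signal. The deposited values ran from -0.0139 to 13.1, with array medians of 2.01 to 2.07, and arrays correlated at 0.965 to 0.983 over 41345 probe sets. The summed signal of 8 hepatocyte markers (log2 of the sum of linear signals, as for the lists that follow) was 14.87 to 14.99 in fasted and 14.85 to 14.95 in fed mice, and of these markers 4 rose and 1 fell with 0 earlier fasts, while 2 rose and 0 fell with 2. Of 10 Kupffer cell markers, 6 fell in the fast of mice with 0 earlier fasts and 3 in mice with 2, and their summed signal was 8.37 to 9.51 in fasted and 8.57 to 10.23 in fed mice. Of 10 stellate cell markers, 4 and 3 fell in the same comparisons, with sums of 9.4 to 10.1 in fasted and 9.39 to 9.88 in fed mice. In whole liver, fewer cells of a type and less RNA per cell cannot be told apart. Of 10 sinusoidal endothelial markers, 1 rose and 0 fell in each comparison. In the response averaged over both histories, 9 of 10 Kupffer cell markers, 4 stellate cell markers and 2 sinusoidal endothelial markers fell, and 1 stellate and 1 sinusoidal endothelial marker rose. The summed signal of 6 adipocyte markers was 4.77 to 6.67 in fasted mice, against 4.28 to 4.65 in fed mice, so every fasted mouse lay above every fed one. Of these 6, Plin4, a lipid droplet gene, rose in both histories and the other 5 were not called. The list's median log2 change was 0.35 with 0 earlier fasts and 0.01 with 2. With 0 earlier fasts, Cidea, Retn, Plin1 and Adipoq were 0.58, 0.36, 0.33 and 0.30 higher, without a call. Adipoq, a defining marker, was at 1.08 to 2.7 in fasted mice, against 1.04 to 1.79 in fed mice. Lep, another, was at 0.91 to 1.61 in fasted mice, against 0.91 to 1.63 in fed mice. For exocrine pancreas, 1 of 5 markers was called higher and 1 lower with 0 earlier fasts, and 1 lower with 2, with sums of 3.99 to 4.34 in fasted and 4.17 to 4.71 in fed mice. Cpa1, a defining one, was at 1.48 to 2.09 in fasted and 1.38 to 2.02 in fed mice. Of 6 skeletal muscle markers, 1 fell in mice with 2 earlier fasts, and of 5 cholangiocyte, 7 lymphocyte and 7 neutrophil and monocyte markers 0 were called in either comparison. The part of these marker lists in the members' results was not tested.

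The final fast changed 6 of the 8 measured factors in mice of both histories, 5 upwards and 1 downwards. Fgf21, Angptl4 and Igfbp1 rose by more than 4-fold in each history, Igfbp2 and Inhbe by less than 2-fold, and Angptl8 fell in both. Enho and Fst were not called. With 0 earlier fasts, 12.5% of all genes were called (limma, adjusted p under 0.05), 6.25% higher and 6.23% lower, and with 2 earlier fasts 11.6%, 6.06% higher and 5.52% lower. The members were picked for their known part in fasting, with results of these data known, so their number beside these shares is a description.

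**Figure D1:**
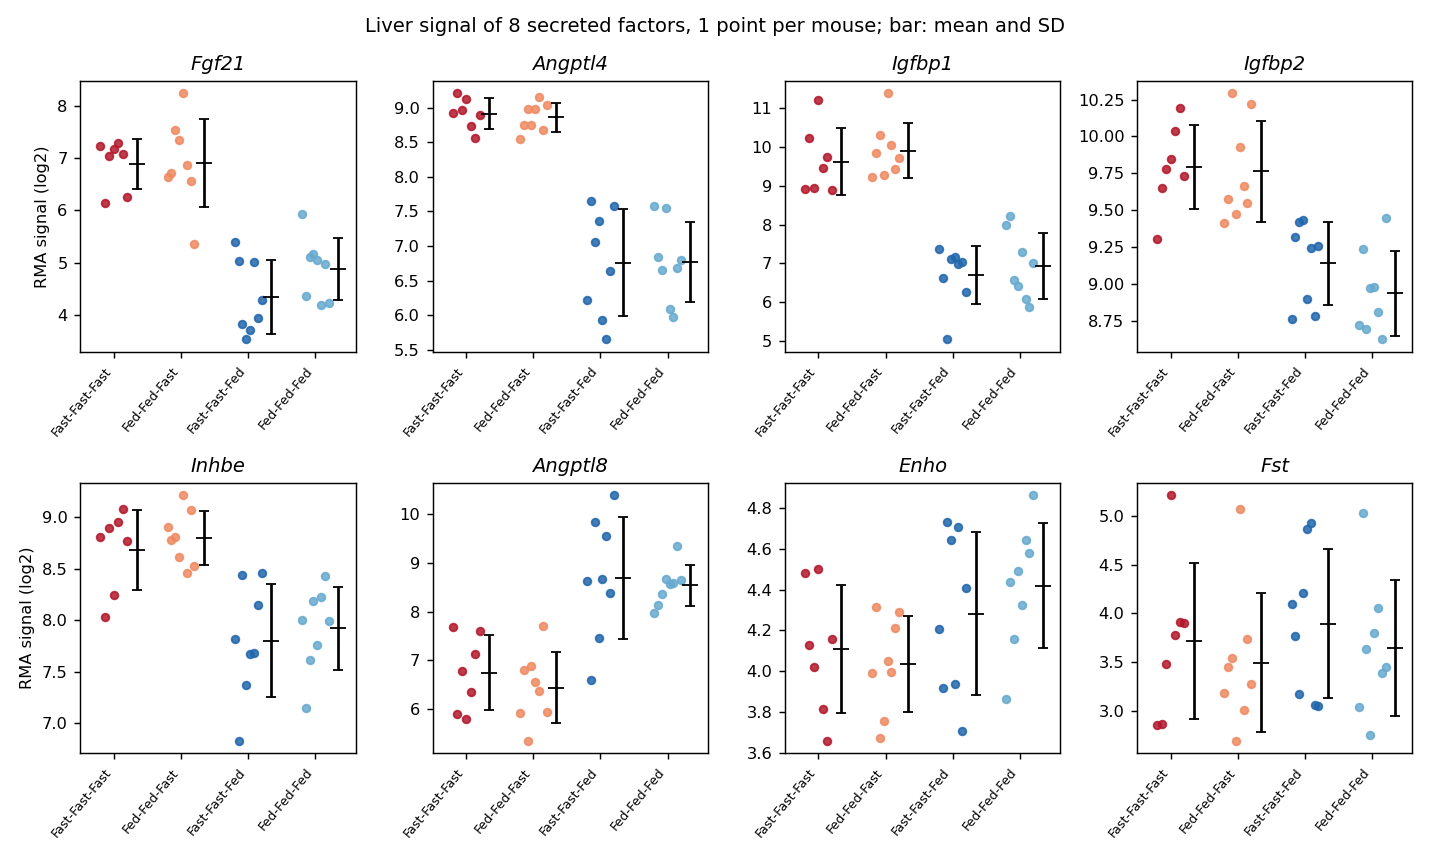
RMA signal (log2, vertical axis) of each factor in every mouse, by group (horizontal axis), with points for mice and bars for the group mean and SD. For Igfbp1 and Angptl4 all fasted mice of either history lie above all fed mice of the same history, while the groups of Enho and Fst lie across each other.

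Fgf21 signal was 6.14 to 7.29 with a median of 7.09 in Fast-Fast-Fast mice, against 3.52 to 5.4 with a median of 4.11 in Fast-Fast-Fed mice. The lowest fasted mouse was above the highest fed one, and all 7 fasted mice exceeded all 8 fed mice. In mice with 0 earlier fasts it was 5.36 to 8.25 (median 6.8) in Fed-Fed-Fast and 4.19 to 5.93 (median 5.01) in Fed-Fed-Fed mice, and these groups overlap through 1 fasted mouse, replicate 8, which lies below the highest fed mouse. The change was 5.88-fold (log2 change 2.56, SE 0.32, adjusted p = 3.12e-07) with 2 earlier fasts and 4.12-fold (log2 change 2.04, SE 0.31, adjusted p = 7.82e-06) with 0. Groups without overlap were found for 4.37% of all genes in the comparison with 2 earlier fasts and for 4.28% in the comparison with 0.

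Angptl4 signal was 8.56 to 9.21 (median 8.93) in Fast-Fast-Fast mice, against 5.65 to 7.65 (median 6.84) in Fast-Fast-Fed mice. It was 8.55 to 9.15 (median 8.87) in Fed-Fed-Fast mice, against 5.98 to 7.58 (median 6.74) in Fed-Fed-Fed mice. In each history every fasted mouse was above every fed mouse, with gaps of 0.91 and 0.97 between the groups. Angptl4, the inhibitor of lipoprotein lipase that fasting is known to raise, rose 4.45-fold (log2 change 2.15, SE 0.25, adjusted p = 4.01e-08) with 2 earlier fasts and 4.26-fold (log2 change 2.09, SE 0.24, adjusted p = 2.9e-08) with 0. Its spread among mice was smaller in fasted groups, with SDs of 0.22 in Fast-Fast-Fast and 0.21 in Fed-Fed-Fast mice, against 0.77 in Fast-Fast-Fed and 0.58 in Fed-Fed-Fed mice (log2, n = 7, 8, 8 and 8). That difference in spread was not tested.

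Angptl8, the feeding-induced partner of the family, moved the other way. Its signal was 5.8 to 7.68 (median 6.78) in Fast-Fast-Fast mice, against 6.59 to 10.39 (median 8.65) in Fast-Fast-Fed mice, and these groups overlap. It was 5.34 to 7.7 (median 6.47) in Fed-Fed-Fast mice, against 7.97 to 9.36 (median 8.57) in Fed-Fed-Fed mice, where all 8 fasted mice lie below all 8 fed mice. The fall was 3.84-fold (log2 change -1.94, SE 0.40, adjusted p = 0.000685) with 2 earlier fasts and 4.28-fold (log2 change -2.10, SE 0.39, adjusted p = 0.000141) with 0. Fed mice with 2 earlier fasts had the widest spread of any group, with an SD of 1.25 (n = 8) against 0.42 (n = 8) in Fed-Fed-Fed mice. The difference between these SDs was not tested. Fast-Fast-Fed replicate 2 held the lowest value, 6.59, and replicate 8 the highest, 10.39.

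Igfbp1 showed the largest change of the set. Its signal was 8.9 to 11.21 (median 9.45) in Fast-Fast-Fast mice, against 5.03 to 7.36 (median 7.0) in Fast-Fast-Fed mice. It was 9.22 to 11.39 (median 9.78) in Fed-Fed-Fast mice, against 5.87 to 8.22 (median 6.79) in Fed-Fed-Fed mice. All fasted mice of each history were above all fed mice of that history, with gaps of 1.53 and 1.0. Igfbp1, which binds and holds back insulin-like growth factors, rose 7.63-fold (log2 change 2.93, SE 0.38, adjusted p = 4.69e-07) with 2 earlier fasts and 7.85-fold (log2 change 2.97, SE 0.36, adjusted p = 1.51e-07) with 0. By size of change it stood at rank 21 and rank 23 of 22180 genes.

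Igfbp2 rose less than its relative. Its signal was 9.31 to 10.19 (median 9.78) in Fast-Fast-Fast mice, against 8.76 to 9.44 (median 9.25) in Fast-Fast-Fed mice, and 9.41 to 10.29 (median 9.62) in Fed-Fed-Fast mice, against 8.62 to 9.44 (median 8.89) in Fed-Fed-Fed mice. In each history 1 fasted mouse, replicate 1, lies below the highest fed mouse, and the other fasted mice lie above all fed mice. The rise was 1.57-fold (log2 change 0.65, SE 0.15, adjusted p = 0.00179) with 2 earlier fasts and 1.78-fold (log2 change 0.83, SE 0.14, adjusted p = 4.82e-05) with 0. The 95% intervals of the log2 change of Igfbp1, 2.16 to 3.7 and 2.23 to 3.71, lie above those of Igfbp2, 0.35 to 0.95 and 0.54 to 1.12, in both histories.

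Inhbe, the activin E gene, had a signal of 8.03 to 9.08 (median 8.81) in Fast-Fast-Fast mice, against 6.82 to 8.46 (median 7.75) in Fast-Fast-Fed mice. It was 8.46 to 9.22 (median 8.79) in Fed-Fed-Fast mice, against 7.15 to 8.43 (median 8.0) in Fed-Fed-Fed mice, where the groups are separated by 0.027 only. The rise was 1.84-fold (log2 change 0.88, SE 0.20, adjusted p = 0.00192) with 2 earlier fasts and 1.84-fold (log2 change 0.88, SE 0.19, adjusted p = 0.00132) with 0. Follistatin's gene Fst, whose product binds activins, was at 2.86 to 5.22 (median 3.78) in Fast-Fast-Fast mice, against 3.05 to 4.93 (median 3.94) in Fast-Fast-Fed mice. It was at 2.69 to 5.07 (median 3.37) in Fed-Fed-Fast mice, against 2.75 to 5.03 (median 3.54) in Fed-Fed-Fed mice. The groups lie across each other, and Fst was not called (log2 change -0.18, 95% interval -0.9 to 0.54, with 2 earlier fasts, and -0.15, interval -0.84 to 0.54, with 0). As folds these intervals run from 0.54 to 1.45 and from 0.56 to 1.46.

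Enho, the adropin gene, was at 3.66 to 4.5 (median 4.13) in Fast-Fast-Fast mice, against 3.71 to 4.73 (median 4.31) in Fast-Fast-Fed mice. It was at 3.67 to 4.32 (median 4.02) in Fed-Fed-Fast mice, against 3.87 to 4.86 (median 4.46) in Fed-Fed-Fed mice. The groups overlap in both histories. The log2 change was -0.17 (SE 0.16, adjusted p = 0.606) with 2 earlier fasts and -0.38 (SE 0.15, adjusted p = 0.101) with 0, and neither passed. Averaged over both histories it was -0.28 (SE 0.11, adjusted p = 0.0712), in a comparison that called 19.1% of all genes, 9.79% higher and 9.36% lower, and 6 of the 8 factors. Without Fed-Fed-Fed replicate 1, the lowest mouse of its group, the change with 0 earlier fasts was -0.46 and passed (adjusted p = 0.0353). Over all 31 fits without 1 array this change ran from -0.46 to -0.32, with a limma adjusted p of 0.0353 to 0.21.

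**Figure D2:**
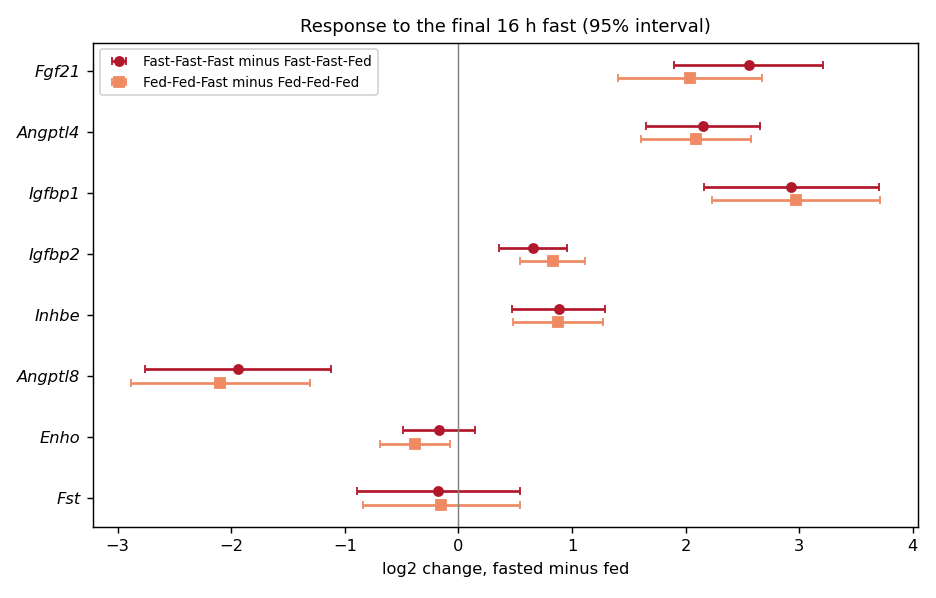
Log2 change of each factor from fed to fasted (horizontal axis, fasted minus fed), with circles for mice with 2 earlier fasts, squares for mice with 0, and bars for the 95% interval. Fgf21, Angptl4, Igfbp1, Igfbp2 and Inhbe lie to the right of 0 in both histories, Angptl8 lies to the left, and the intervals of the 2 histories overlap for every factor.

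The comparison of histories asks whether livers of mice with 2 earlier fasts differ in these genes when mice are in the same final state. In fasted mice, Fast-Fast-Fast minus Fed-Fed-Fast differences ran from -0.28 for Igfbp1 (95% interval -1.05 to 0.49) to 0.30 for Angptl8 (interval -0.51 to 1.12), and 0 of 8 factors were called. In fed mice, Fast-Fast-Fed minus Fed-Fed-Fed differences ran from -0.53 for Fgf21 (interval -1.17 to 0.1, adjusted p = 0.906) to 0.25 for Fst (interval -0.44 to 0.94), and 0 of 8 were called. Of all genes, 0% were called by limma in either comparison, with 996 of 22180 genes at an unadjusted p under 0.05 in fasted and 1245 in fed mice, none of which was among the 8. All 8 factors overlapped between histories in both states, as did all but 0.0361% of genes in fasted and all but 0.00902% in fed mice. For Fgf21 in fed mice the means were 4.34 ± 0.71 in Fast-Fast-Fed and 4.87 ± 0.59 in Fed-Fed-Fed mice (SD, n = 8 each). That difference, smaller than either SD among mice, had an SE of 0.31 and stood at rank 41 of 22180 genes by size. By p it stood at rank 2359 (limma, unadjusted p = 0.0964). Of the 8 Fast-Fast-Fed mice, 4 lay below all Fed-Fed-Fed mice, a count that was not tested.

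The responses themselves were also compared as an interaction, the fasting response with 2 earlier fasts minus that with 0. It was 0.51 for Fgf21 (interval -0.4 to 1.43), 0.21 for Enho, 0.15 for Angptl8 (interval -0.98 to 1.29), 0.06 for Angptl4 (interval -0.63 to 0.76), 0.01 for Inhbe, -0.03 for Fst, -0.04 for Igfbp1 (interval -1.11 to 1.03) and -0.18 for Igfbp2 (interval -0.59 to 0.24). Of the 8 factors 0 were called, as were 0% of all genes by limma, with 1023 genes at an unadjusted p under 0.05. The intervals are wide for the factors that vary most among mice. For Fgf21, Igfbp1, Angptl8 and Fst they reach past a 2-fold difference between the responses, so a difference of that size lies within them. For Angptl4, Igfbp2, Inhbe and Enho the intervals stay within 2-fold.

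**Figure D3:**
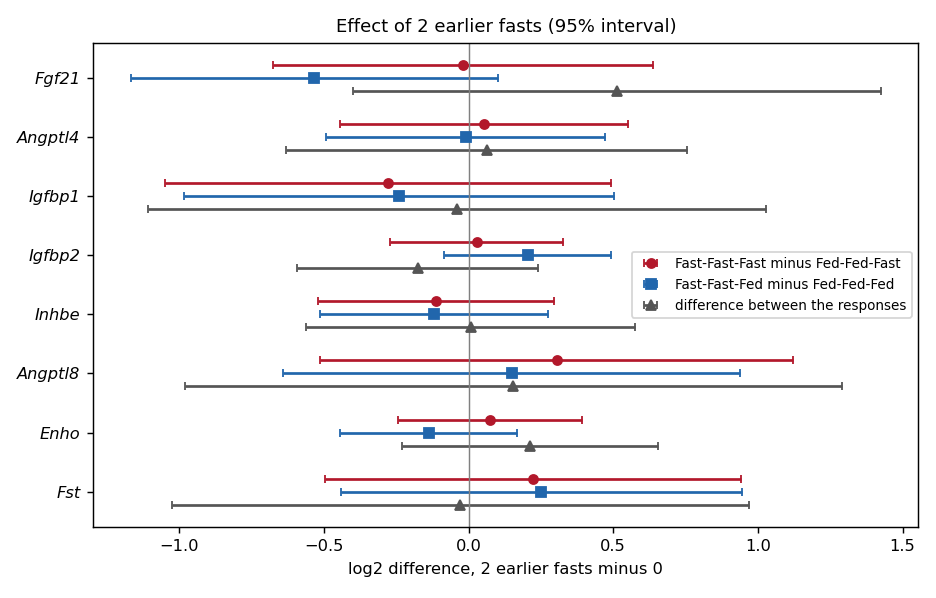
Log2 difference for mice with 2 earlier fasts minus mice with 0 (horizontal axis), with circles for fasted mice, squares for fed mice, triangles for the difference between the 2 fasting responses, and bars for the 95% interval. Every interval includes 0, and the intervals of Igfbp1, Angptl8 and Fst are the widest.

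By group means, both fasted groups were above both fed groups for Fgf21, Angptl4, Igfbp1, Igfbp2 and Inhbe, and both were below for Angptl8. Within a final state no factor was called between the 2 histories. By the SD pooled over the 4 groups, mice of one group differed more in these genes than in most others. Angptl4 was uneven, with SDs of 0.22 in Fast-Fast-Fast and 0.21 in Fed-Fed-Fast mice. Its SDs were 0.77 in Fast-Fast-Fed and 0.58 in Fed-Fed-Fed mice. The SD within groups was 0.85 for Angptl8, 0.8 for Igfbp1, 0.74 for Fst, 0.68 for Fgf21, 0.51 for Angptl4, 0.42 for Inhbe, 0.32 for Enho and 0.3 for Igfbp2 (log2, 31 arrays), against a median of 0.2 over all genes. By that measure Angptl8 stood at the 99.9th percentile of 22180 genes and Igfbp2, the steadiest, at the 87.4th percentile. The median gene had a mean signal of 2.26, below all 8 factors, and the part of signal level in the spread was not tested.

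Because these factors vary among mice of a group, pairs of factors were compared as deviations from the group mean over 31 arrays, in 28 pairs with permutation within groups. Angptl8 and Inhbe deviated together, although the fast lowered Angptl8 and raised Inhbe. Pearson's r was 0.69 (permutation p = 8e-05, adjusted p = 0.00224) and Spearman's rho 0.62 (permutation p = 0.00059, adjusted p = 0.0165). Within fed mice r was 0.79 (n = 16, permutation adjusted p = 0.0179), and within fasted mice 0.51 (n = 15, permutation adjusted p = 0.327), which did not pass. Without the 2 arrays farthest from the median of Angptl8, r was 0.55. Fast-Fast-Fed replicate 2 had the lowest signal of its group for both genes, and replicate 8 the highest for both. By group r was 0.67 in Fast-Fast-Fast, 0.3 in Fed-Fed-Fast, 0.87 in Fast-Fast-Fed and 0.66 in Fed-Fed-Fed mice.

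Igfbp1 and Fst also deviated together, with r = 0.59 (permutation p = 0.00129, adjusted p = 0.0181) and rho = 0.44 (permutation p = 0.02, adjusted p = 0.14), which did not pass. Within fed mice r was 0.47 (n = 16, permutation adjusted p = 0.3) and within fasted mice 0.71 (n = 15, permutation adjusted p = 0.136). The relation rests on few mice. Fast-Fast-Fast replicate 4 and Fed-Fed-Fast replicate 5 had the highest Igfbp1 and the highest Fst of their groups, as had Fed-Fed-Fed replicate 2. Without one of these at a time r was 0.5, 0.5 and 0.53 (permutation adjusted p = 0.14, 0.18 and 0.0776), and without the 2 arrays farthest from the median of Igfbp1 it was 0.48. Igfbp1 and Angptl8 deviated in opposite directions by rho (-0.55, permutation adjusted p = 0.0253) but did not pass by r (-0.49, permutation adjusted p = 0.0522). For Fgf21 the largest r with another factor in size was -0.35, with Enho (rho = -0.37, permutation adjusted p = 0.289 for r), and no pair with Fgf21 passed.

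**Figure D4:**
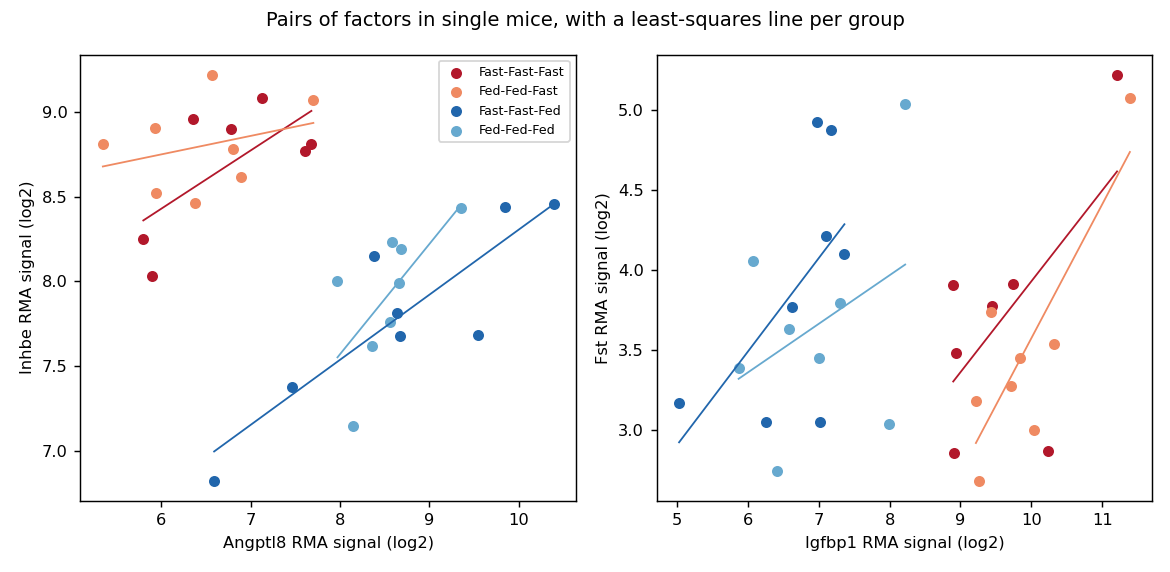
Signal of 2 pairs of factors in single mice (both axes RMA signal, log2), coloured by group, with a least-squares line for each group. In the plot of Inhbe against Angptl8 the fasted groups sit to the upper left of the fed groups while the line within each group slopes upwards, and in the plot of Fst against Igfbp1 the highest fasted points belong to 2 mice.

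The genes most like each factor in their deviations over 31 arrays, of 19240 genes compared, are given as a description. Irs2, the insulin receptor substrate gene that FoxO1 is known to raise, followed Igfbp1 (r = 0.72, rho = 0.66), behind Slc25a3, the mitochondrial phosphate carrier gene (r = 0.84, rho = 0.8), and ahead of Dnase2b (r = 0.7). Irs2 itself rose by 1.29 with 2 earlier fasts (adjusted p = 0.000209) and by 1.2 with 0 (adjusted p = 0.000299). Pdk4, a kinase that shuts off pyruvate dehydrogenase, followed Fgf21 (r = 0.66 and rho = 0.52 over all, r = 0.88 in fasted and 0.38 in fed mice), behind Tubb2a (r = 0.7) and Tlcd5 (r = 0.67). Lpin2, a phosphatidate phosphatase gene, followed Angptl4 (r = 0.74), as did Sgms2, a sphingomyelin synthase gene (r = 0.8 over all, 0.41 in fasted and 0.88 in fed mice), and Fnip1 (r = 0.73). Inhbe was itself among the 3 genes most like Angptl8, with Ttc34 (r = 0.76) and Id1, a gene that BMP signalling is known to raise (r = 0.69). For Inhbe they were Ccn1 (r = 0.77), Chst13 (r = 0.72) and Axin2, a target of Wnt signalling (r = 0.7). Hnf4a, a master transcription factor of hepatocytes, followed Enho (r = 0.62), behind Them4 (r = 0.7 over all, 0.4 in fasted and 0.89 in fed mice) and Nxf1 (r = 0.62). Grtp1 (r = 0.69), Snord35b and Defb7 followed Igfbp2, and Mir1967 (r = 0.76), Srpk3 and Sik1, a kinase gene induced by cAMP (r = 0.68), followed Fst. All these genes share the same 31 arrays, and the top of so many comparisons was picked, so no test is given.

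Partner genes of each factor were read from lists of receptors, carriers and regulators. Of 14 genes of FGF21 signalling and its regulators, 2 rose and 4 fell with 2 earlier fasts and 5 rose and 3 fell with 0, with medians of -0.04 and 0.12 against 0.00 over all genes in both comparisons. Ppara, the gene of the fatty acid sensor, rose by 0.52 (adjusted p = 0.00125) and 0.47 (adjusted p = 0.00254) in the 2 histories in that order. Mlxipl, the carbohydrate-responsive factor ChREBP, fell by 0.99 and 1.00, and Fgfr3, an FGF receptor gene, fell by 1.11 in each. Klb, the gene of beta-klotho, rose by 0.27 with 0 earlier fasts (adjusted p = 0.0263) and was 0.19 higher with 2, without a call (adjusted p = 0.186). Fgfr1 differed by -0.03 and -0.01 and Fgfr4 by -0.27 (adjusted p = 0.0895) and -0.29, with no call in either history. In the response averaged over both histories, 6 genes of this list rose and 5 fell, in a comparison that called 19.1% of all genes. Ppargc1a, a coactivator of fasting genes, rose by 0.89 with 0 earlier fasts (adjusted p = 0.00408) and was 0.41 higher with 2 (adjusted p = 0.316). Nr1d1, the clock repressor gene, fell by 0.64 with 2 earlier fasts (adjusted p = 0.0153) and differed by -0.44 with 0 (adjusted p = 0.112). Neither gene was called in the interaction.

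Of 15 measured genes of 18 on the list of triglyceride lipases and their regulators, 3 rose and 1 fell with 2 earlier fasts and 5 rose and 1 fell with 0, with medians of 0.12 and 0.06. Apoc2, the activator of lipoprotein lipase, rose by 0.63 and 0.51, and Apoa5, which promotes the lipase's action, by 0.58 and 0.50. Pcsk5, a proprotein convertase gene, rose by 0.60 and 0.66, and Lsr, a lipoprotein receptor gene, fell by 0.50 and 0.60. Lpl itself, the lipase that Angptl4 and Angptl8 act on, differed by -0.51 (adjusted p = 0.191) and -0.36 (adjusted p = 0.398) and was not called.

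Of 18 genes of the insulin-like growth factor axis, 1 rose and 1 fell with 2 earlier fasts and 3 rose and 2 fell with 0, with medians of -0.12 and 0.00. Ghr, the growth hormone receptor gene, fell by 0.91 (adjusted p = 2.66e-07) and 1.01 (adjusted p = 1.38e-08). Igfbp4, another binding protein, rose by 0.31 and 0.43. Igf1, the ligand that the binding proteins carry, differed by 0.02 and 0.07 (adjusted p = 0.926 and 0.698) and Igfbp3, its main carrier in plasma, by -0.16 and 0.12, without calls. Igf1 signal was 8.89 to 9.27 in Fast-Fast-Fast and 8.9 to 9.34 in Fed-Fed-Fast mice, against 8.78 to 9.29 in Fast-Fast-Fed and 8.9 to 9.16 in Fed-Fed-Fed mice. Igfals, the subunit that completes the large plasma complex, fell by 0.34 with 0 earlier fasts (adjusted p = 0.0182) and differed by -0.06 with 2 (adjusted p = 0.824). Stc2, an inhibitor of a protease that frees IGF, rose by 0.38 with 0 earlier fasts (adjusted p = 0.0439) and differed by -0.05 with 2 (adjusted p = 0.891).

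Of 20 genes of the activin and follistatin axis, 2 rose and 2 fell with 2 earlier fasts and 1 rose and 2 fell with 0, with medians of 0.02 and -0.03. The 4 inhibin beta subunit genes moved unequally. Inhba, the activin A subunit, fell by 0.90 (adjusted p = 0.00402) and 1.00 (adjusted p = 0.000839), while Inhbe rose by 0.88 in each history. Inhbb rose by 0.39 (adjusted p = 0.0369) and 0.36 (adjusted p = 0.045). Inhbc, the liver gene of the activin C subunit, rose by 0.48 with 2 earlier fasts (adjusted p = 0.0115) and was 0.14 higher with 0 (adjusted p = 0.602). Inhba was at 4.14 to 4.69 in Fast-Fast-Fast and 4.05 to 5.03 in Fed-Fed-Fast mice, against 4.82 to 6.44 in Fast-Fast-Fed and 4.37 to 6.01 in Fed-Fed-Fed mice. Acvr1, an activin and BMP type I receptor gene, fell by 0.31 and 0.27.

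**Figure D5:**
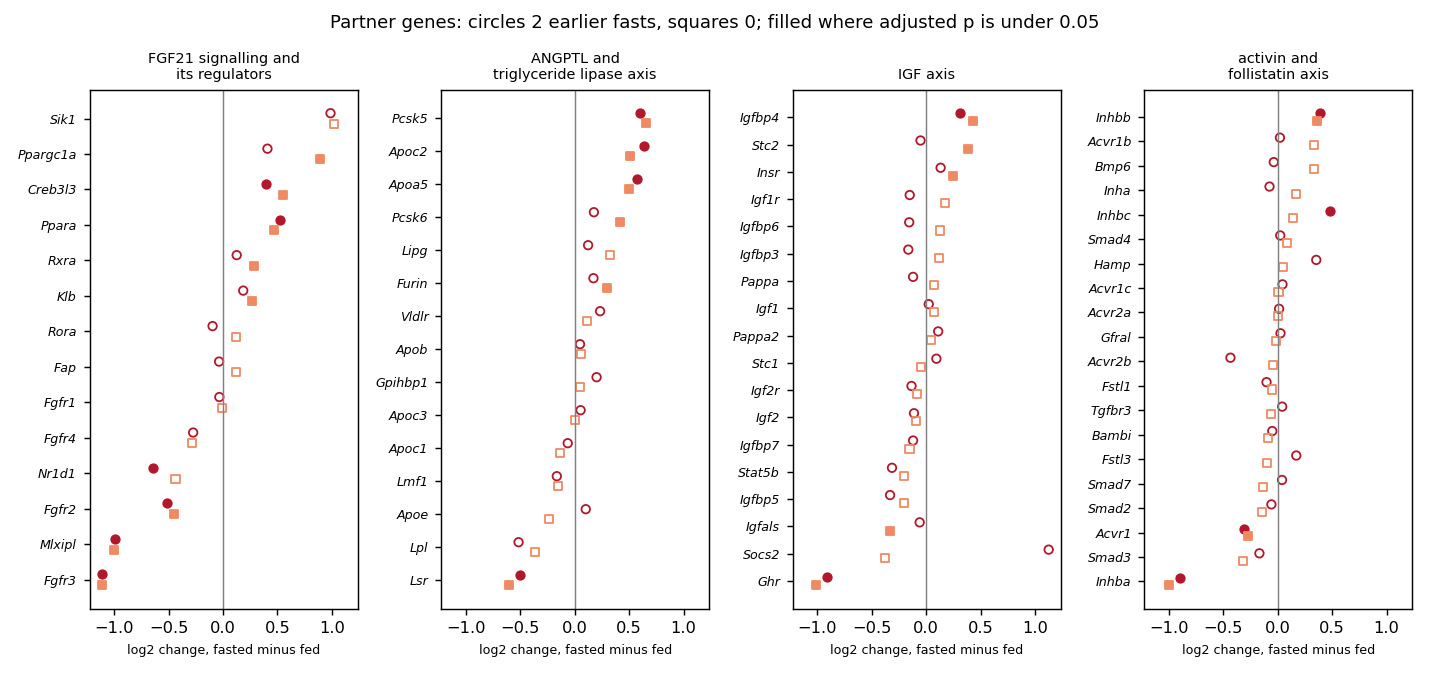
Log2 change from fed to fasted (horizontal axis, fasted minus fed) of the measured genes of 4 partner lists, with circles for mice with 2 earlier fasts, squares for mice with 0, and filled symbols where adjusted p is under 0.05. Most partner genes lie near 0, and Ghr, Inhba, Mlxipl and Fgfr3 lie near -1 in both histories. Sik1 lies near 1 in both histories (0.99 with 2 earlier fasts and 1.01 with 0), with no call in either history taken alone. The response averaged over both histories is not drawn. There 6 genes of the FGF21 list rose, and the highest log2 change on that list was 1.001, that of Sik1. Socs2 lies at 1.12 with 2 earlier fasts without a call.

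Lists of genes of the factors' known upstream pathways differed in how many genes were called. They were chosen with earlier results of these data known, and Pdk4 is on both the PPAR-alpha and the FoxO1 list. The counts are therefore a description. Over all genes, 6.06% rose and 5.52% fell with 2 earlier fasts, and 6.25% rose and 6.23% fell with 0. Of 17 measured PPAR-alpha targets of 20 listed, 16 rose and 0 fell with 2 earlier fasts and 16 rose and 1 fell with 0, with medians of 1.2 and 1.19. Cyp4a14, Cidec, Acot1 and Acot2 had the largest rises, of 5.50, 4.94, 4.47 and 4.39 with 2 earlier fasts. Of 15 genes of insulin and FoxO1 signalling, 7 rose and 2 fell in each history, with medians of 0.41 and 0.44. Foxo1 itself rose by 0.46 (adjusted p = 0.00922) and 0.49 (adjusted p = 0.00333), Pck1, of gluconeogenesis, by 1.07 and 1.26, Pdk4 by 1.37 and 1.19, and Srebf1, the lipogenic factor that insulin raises, fell by 2.77 and 2.93. Of 18 genes of the ATF4 and CHOP response, 5 rose and 1 fell with 2 earlier fasts and 6 rose and 1 fell with 0, with medians of 0.14 and 0.13. The gene that fell was Atf4 itself, by 0.39 (adjusted p = 0.0077) and 0.46 (adjusted p = 0.000782), and Ddit3, which codes for CHOP, differed by 0.03 and -0.11 without a call. Cebpb, a partner of ATF4, rose by 0.61 and 1.11, Atf5, a related factor, by 1.15 and 1.07, Gpt2, an aminotransferase gene, by 0.98 and 1.08, and Sesn2, a stress-induced regulator, by 0.84 and 0.87.

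Of 31 other measured genes for proteins that liver secretes, of 34 listed, 6 rose and 9 fell with 2 earlier fasts and 5 rose and 10 fell with 0, with medians of -0.02 in each. Lcn2, which codes for lipocalin 2, rose by 1.24 and 1.15, and Fgl1, a hepatocyte-derived fibrinogen-like protein, by 0.87 and 1.03. F11, coagulation factor XI, fell by 1.15 and 1.23, and Lect2, a hepatokine, by 0.94 and 0.99. In the comparisons of histories and in the interaction, 0 of the genes on these lists were called.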

How the data were processed

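Livers of 31 mice were profiled on Affymetrix whole-transcript arrays from 100 ng of total RNA each, with 1 array per mouse, per the labels' protocols. The values deposited by the authors are log2 signals per probe set made with RMA, per the submitters' processing notes; RMA as generally used corrects background, normalizes quantiles and summarises probes. The version and the genome build are not given in the sources used here. Detection calls were not used, so no limit of detection is given, and the number of arrays limits the precision. Probe sets were named by the platform's annotation, which gives 1 symbol for 23521 of 41345, several for 1814 and none for 16010, and 22180 genes resulted. All 8 members' Entrez identifiers matched RefSeq on GRCm38.p6. A single limma 3.58.1 model (R 4.3.3) with 4 group means and moderated variances was used, and p-values were adjusted by Benjamini-Hochberg over all genes, 2-sided, with calls under 0.05. Intervals are 95% intervals of that fit. Pairs of factors were tested by 2-sided permutation within groups with 100000 resamples, adjusted over 28 pairs. Members, lists, motifs and tests were chosen with earlier results of these data known. Besides the members, the text names up to 4 called genes of each list with the largest changes, a set of partners (Klb, Fgfr1, Fgfr4, Igf1, Igfbp3, Lpl, Inhbc, Atf4, Ddit3, Foxo1, Ppara) and the 3 genes most like each member, and Socs2 and the marker genes Plin4, Plin1, Cidea, Retn, Adipoq, Lep and Cpa1 were added after their values were seen. Simulated data held 200 changed genes among 22180. The fit recovered 99.3% of 2-fold and 79.3% of 1.5-fold changes for the response with 2 earlier fasts. It recovered 99.3% and 84.7% for that with 0, and 90% and 46.7% for the interaction. The changed genes were picked at random and kept their own SDs, with a median of 0.2 over all genes. All 8 members had larger SDs, of 0.3 to 0.85, so these shares do not apply to them. The labels do not say that a replicate number marks a shared litter, batch or day. In deviations from the group mean, same-numbered arrays of different groups correlated over 0.1 in 3 of 45 pairs. Their mean was 0.028, against -0.004 for differently numbered arrays, and 7 of 31 arrays were most like one of their own number. Numbers were not treated as pairs, and a fit with a replicate block is given below. The labels name no batch. A cohort size of 24 mice is recorded for every array, against 31 mice here, and cohort was not part of the fit.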

Additional observations from a re-analysis of the deposited data

Results flagged for a closer look

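One of 32 checks of the highest and lowest mouse in each group of each factor stood apart. Fst in Fed-Fed-Fast replicate 5 was 5.07, against 3.74 for the next highest of its 8 mice, and the gap made up 0.56 of the group's range, above the critical value of 0.526. At this limit chance marks about 1 in 20 groups. The same mouse had the highest Igfbp1 (11.39) and the highest Fgf21 (8.25) of its group. No factor was called in the interaction, and none moved in opposite directions in the 2 histories.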

How the results depend on the processing

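In all, 6 members were called in the response to the fast under all 10 alternatives of the fit, in mice with 2 earlier fasts and with 0, and 0 in the comparisons of histories. These alternatives were the mean of a gene's probe sets, adjustment over all probe sets, only the groups compared, an intensity trend, robust variances, array weights, array medians subtracted, cyclic loess, the removal of dim genes and a replicate block. With the replicate block, 2584 genes were called with 2 earlier fasts, against 2569 without it, and 2812 with 0 earlier fasts, against 2768 without it, and the block changed no member's call. Over the 31 fits without 1 array, 6 members were called with 2 earlier fasts and 6 to 7 with 0, and the count of all genes ran from 2277 to 2613 and from 2439 to 2807. In the same fits the count of genes called was 0 to 1 between histories in fasted mice, 0 to 1 in fed mice and 0 to 1 for the interaction. Between histories and in the interaction, 0 members were called in these fits. The additional member in the response with 0 earlier fasts was Enho. Its mean response over both histories, -0.28, passed without dim genes (adjusted p = 0.042, with fewer genes tested) and in 6 of the fits without 1 array (adjusted p = 0.0275 to 0.0493). No called change of a member turned its sign. Of 480 changes of members under the 10 alternatives 4 turned sign, and of 1488 in fits without 1 array 74 did, all in changes that were not called. Of 28 pairs of factors, 2 were called over 31 arrays, 1 within fed and 0 within fasted arrays (fewer arrays), and 3 with array medians subtracted. In fits without 1 array, added after the data were seen, r of Angptl8 and Inhbe was 0.59 to 0.72 and r of Igfbp1 and Fst 0.5 to 0.67. The fit assumes 1 variance per gene in all groups, and Angptl4 and Angptl8 had unequal SDs between groups. P-values rest on mice read as separate animals from the labels.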
